A study of Mus musculus with 2 samples.

Results

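The genes described here are those of type 2 immunity: the cytokines Il4, Il5 and Il13, the epidermal growth factor receptor ligand Areg (amphiregulin), the interleukin-33 receptor chain Il1rl1 (ST2), the transcription factor Gata3, the interleukin-4 receptor chain Il4ra, and Retnla and Chil3, which encode secreted proteins of alternatively activated mouse macrophages. They were taken by symbol from the gene lists of both libraries, 9 of 32285 genes, and all 9 were found in each. They were followed over the leukocyte types of the mouse aorta, in barcodes with at least 500 detected genes and at most 15% mitochondrial UMIs (unique molecular identifiers, of which each captured RNA molecule carries 1).

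The series holds 2 droplet single-cell libraries of CD45+ cells from aorta, where CD45 is the surface antigen of leukocytes. In the first, labelled treated, the cells came from a group given ZnDPA@siIRF5, a preparation with a small interfering RNA against the transcription factor IRF5, and in the other, labelled control, from a control group. The study asked how the preparation acts on macrophages of the aortic lesion. Genotype, strain, diet, age, sex, the number of animals pooled in a library and the contents of the control preparation are not given in the sources used here. With 1 library per group there was no test, and animal, dissection, library and treatment cannot be told apart.

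Interleukin-4 and interleukin-13 signal through receptors that contain the Il4ra chain and activate the transcription factor STAT6, which in mouse macrophages induces a set of genes that includes Retnla and Chil3. Interleukin-5 supports eosinophils and B-1 cells. Group 2 innate lymphoid cells (ILC2), helper T cells of type 2, mast cells and basophils are known sources of these cytokines, and interleukin-33 acts on them through Il1rl1, while GATA3 is the factor that sets the type 2 programme in lymphocytes.

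The cytokine genes lie together on mouse chromosome 11. In the GENCODE vM21 annotation of GRCm38, Il4 (ENSMUSG00000000869, chr11:53602982-53618669, minus strand) and Il13 (ENSMUSG00000020383, chr11:53631324-53634702, minus strand) are separated by 12654 bp. Il5 (ENSMUSG00000036117, chr11:53720794-53725106, plus strand) lies 86091 bp beyond Il13, with the DNA repair gene Rad50 between them. The other members are on other chromosomes: Il1rl1 at chr1:40429570-40465415 (plus), Gata3 at chr2:9857078-9890034 (minus), Chil3 at chr3:106147554-106167564 (minus), Areg at chr5:91139599-91148432 (plus), Il4ra at chr7:125552120-125579474 (plus) and Retnla at chr16:48842551-48844461 (plus).

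Promoter windows of 300 bases, 250 before and 50 after the start, were read from RefSeq (GRCm38.p6) for all 9 genes, 11 windows in all. They were searched on both strands for a STAT6-type palindrome (TTC and GAA with any 4 bases between them) and for GATA cores (GATA with A or T before it and A or G after it). The palindrome was found in 2 of the 11 windows, Il4 and Retnla, against 6.95% of 32851 promoters of 27025 genes. A GATA core was found in 8 of the 11, against 29.8% of all promoters, and no match overlapped another. The windows printed are those of the clustered cytokine genes, of the macrophage gene with the palindrome and of the receptor with the most GATA cores. Each is written 5′ to 3′ on the gene's strand, with the matches in capitals, and a core on the opposite strand appears as its reverse complement. A match describes the letters only.
Il4, second start, chr11:53618616-53618915, minus strand: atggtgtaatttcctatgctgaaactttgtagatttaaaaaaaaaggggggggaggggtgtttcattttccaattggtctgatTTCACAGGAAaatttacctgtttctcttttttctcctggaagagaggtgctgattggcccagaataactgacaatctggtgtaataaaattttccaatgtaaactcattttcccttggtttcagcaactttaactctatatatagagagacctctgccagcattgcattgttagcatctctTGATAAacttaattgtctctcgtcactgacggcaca
Il13, chr11:53634653-53634952, minus strand: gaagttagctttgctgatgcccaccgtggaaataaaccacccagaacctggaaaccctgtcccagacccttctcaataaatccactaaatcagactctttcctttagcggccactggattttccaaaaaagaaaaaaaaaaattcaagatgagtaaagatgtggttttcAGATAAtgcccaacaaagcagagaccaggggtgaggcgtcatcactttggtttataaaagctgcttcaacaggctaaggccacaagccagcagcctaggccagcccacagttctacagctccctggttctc
Il5, chr11:53720544-53720843, plus strand: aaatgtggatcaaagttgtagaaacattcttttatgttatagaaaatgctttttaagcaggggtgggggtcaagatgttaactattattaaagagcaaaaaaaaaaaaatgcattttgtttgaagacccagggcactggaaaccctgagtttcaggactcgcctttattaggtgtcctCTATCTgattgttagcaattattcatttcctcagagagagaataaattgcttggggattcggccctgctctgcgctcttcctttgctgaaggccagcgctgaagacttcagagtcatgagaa
Retnla, chr16:48842359-48842658, plus strand: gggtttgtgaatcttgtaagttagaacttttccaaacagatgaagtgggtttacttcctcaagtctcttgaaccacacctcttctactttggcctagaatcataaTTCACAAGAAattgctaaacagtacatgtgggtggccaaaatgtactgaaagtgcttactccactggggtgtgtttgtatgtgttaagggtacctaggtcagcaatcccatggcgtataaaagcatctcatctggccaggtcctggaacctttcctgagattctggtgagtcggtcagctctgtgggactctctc
Il1rl1, first start, chr1:40429320-40429619, plus strand: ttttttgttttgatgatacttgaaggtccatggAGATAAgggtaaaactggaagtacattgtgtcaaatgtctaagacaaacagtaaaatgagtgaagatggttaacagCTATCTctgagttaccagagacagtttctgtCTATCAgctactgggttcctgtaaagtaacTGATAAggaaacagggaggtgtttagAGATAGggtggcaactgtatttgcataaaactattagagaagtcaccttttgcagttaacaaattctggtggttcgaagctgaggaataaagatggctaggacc
The palindrome TTCACAGGAA began 167 bases before the Il4 start and TTCACAAGAA 145 bases before the Retnla start. The GATA core of Il13 began 81 bases and that of Il5 72 bases before the start, while the Il1rl1 window held 5 cores and the Il4 window shown held 1 core, 15 bases after the start. Chil3 had 3 cores, Gata3 1, and Areg and Il4ra had neither motif.

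The rule left 12466 treated and 12038 control barcodes, with median depths of 4712.5 and 4766 UMIs. Doublets were called in 661 and 515 of them and held apart, which left 11805 and 11523 cells. Of the barcodes that passed the rule, 38 sequences occurred in both libraries. Immunoglobulin genes took 5.44% and 15.4% of UMIs. Clustering without the 9 genes gave 28 clusters, of which 26 were named into 19 classes from marker lists and 2 stayed unnamed. Levels are given as CPM, the UMIs of a gene scaled to 1e6 UMIs of its class in that library, with 95% Poisson intervals in parentheses. Ratios are log2 of treated over control for 17 classes with at least 50 cells in each library, with exact conditional binomial intervals. All intervals, and the limits given for counts of 0, cover counting error only. Irf5 itself in macrophage-like cells was at 121 CPM in the treated-labelled library and 109 CPM in the control-labelled library (log2 ratio 0.15, 0.03 to 0.26). RNA of the small interfering RNA's target was thus not lower in these cells of the treated-labelled library. Whether the preparation acted on Irf5, and whether the labels are right, was not tested. Every direction given here is one between labels.

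**Figure D1:**
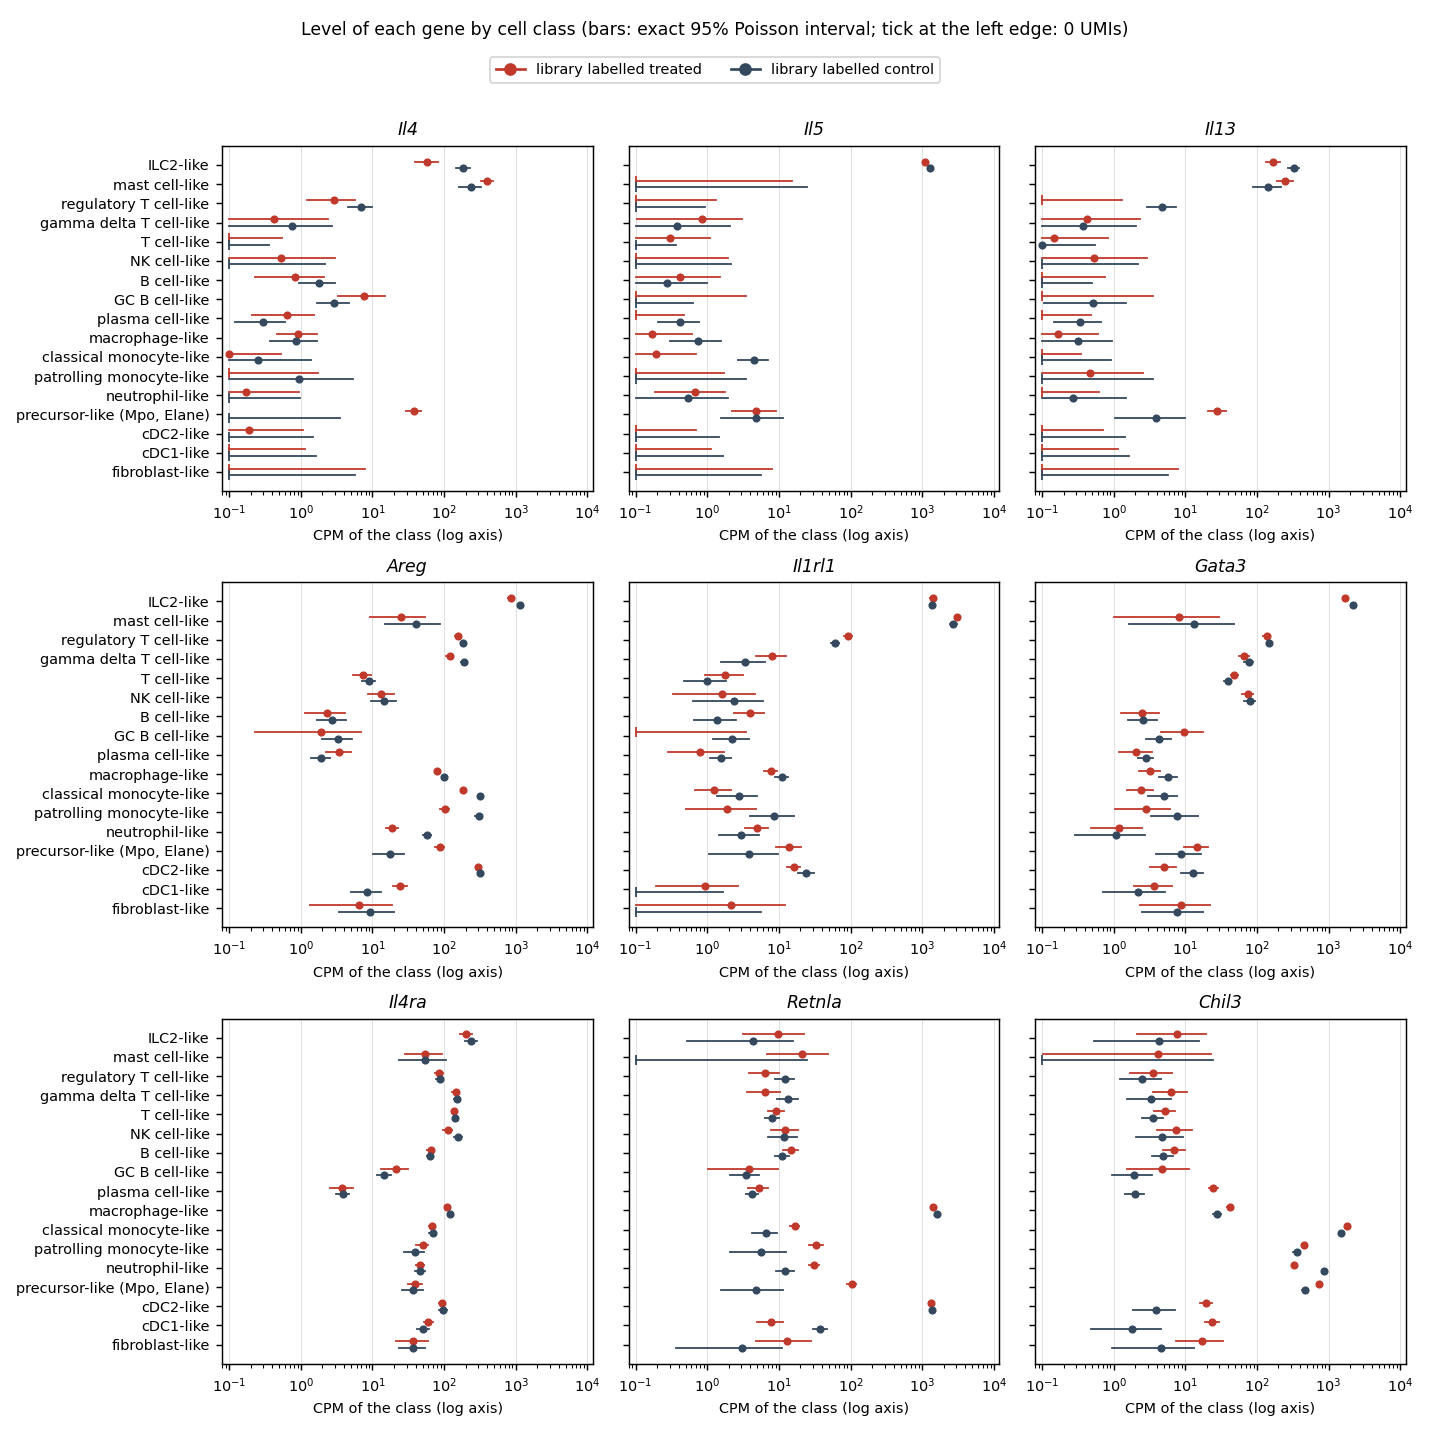
Level of each of the 9 genes in 17 cell classes, in CPM on a log axis, for the treated-labelled library (red, upper) and the control-labelled library (dark blue, lower). Points are UMI sums, bars are exact 95% Poisson intervals and ticks at the left edge are counts of 0; Il5 stands in the ILC2-like class at 1099.8 and 1300.6 CPM and Il4ra is spread over all classes shown.

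Il5 transcripts were concentrated in a small cluster of ILC2-like cells, 121 cells (1.02% of all) in the treated-labelled library and 132 cells (1.15%) in the control-labelled library. This cluster was named from Rora, Calca, Hs3st1, Il7r and other markers that are not members. Of 13 ILC2 markers 12 had a UMI in the treated-labelled library, where Nmur1 was at 0, and 13 in the control-labelled library, with summed levels of 9331 and 11888 CPM. All 14 T cell markers also had UMIs there, summing to 1644 CPM in the treated-labelled library and 840.3 CPM in the control-labelled library. Cd3g was detected in 37.2% and 15.9% of these cells, and the part of T cell transcripts in the values below was not tested.

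Il5 had 574 UMIs in ILC2-like cells of the treated-labelled library, a level of 1099.8 CPM (1012 to 1194), against 599 UMIs and 1300.6 CPM (1198 to 1409) in the control-labelled library. The log2 ratio was -0.24 (-0.41 to -0.07). Of the Il5 UMIs in all barcodes of the rule, called doublets included, that class held 85.4% in the treated-labelled library and 86.6% in the control-labelled library. Il5 was detected in 58 of 121 cells (47.9%) and 67 of 132 cells (50.8%). After cells were thinned to 1000 UMIs the shares were 34.7% and 32.1%. Shallower cells were left out of all thinned shares. B cell-like cells, which should lack the gene, had shares of 0.227% and 0.132%. The output was uneven between cells: 9 cells in each library held 50% of its Il5 UMIs, and the top cell had 52 UMIs in the treated-labelled library and 51 in the control-labelled library. Mast cell-like cells had 0 UMIs of Il5 in both libraries, which allows up to 12.4 CPM and 20.1 CPM (3 UMIs each). Outside the ILC2-like class, 17 of the 18 Il5 UMIs of control classical monocyte-like cells came from 1 cell. Called doublets held a further 75 UMIs in the treated-labelled library and 48 in the control-labelled library.

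Il13 was found mainly in the same ILC2-like cells and in mast cell-like cells, and the difference between the libraries had opposite signs in these classes. ILC2-like cells had 88 UMIs and 169 CPM (135 to 208) in the treated-labelled library, against 150 UMIs and 326 CPM (276 to 382) in the control-labelled library. The log2 ratio was -0.95 (-1.35 to -0.56). Without the top cell of each library the levels were 141 and 271 CPM. Detection was in 19 cells (15.7%) of the treated-labelled library and 32 cells (24.2%) of the control-labelled library, and in 10.7% and 13% after thinning. Mast cell-like cells had 60 UMIs and 248 CPM (190 to 320) in the treated-labelled library, against 21 UMIs and 141 CPM (87.0 to 215) in the control-labelled library. There the log2 ratio was 0.82 (0.08 to 1.61), and 1 cell held 27 of the 60 UMIs in the treated-labelled library and 1 cell 12 of the 21 in the control-labelled library. The difference between the 2 classes in their ratios was not tested.

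Il4 was highest in CPM in mast cell-like cells. They numbered 89 cells (0.754%) in the treated-labelled library and 50 cells (0.434%) in the control-labelled library, and all 10 mast cell markers were present in both. Il4 had 96 UMIs and 398 CPM (322 to 485) there in the treated-labelled library, against 35 UMIs and 234 CPM (163 to 326) in the control-labelled library, with a log2 ratio of 0.76 (0.19 to 1.37). It was detected in 32 cells (36.0%) and 13 cells (26%), and in 24.3% and 11.9% after thinning. A single cell held 18 of the 96 UMIs in the treated-labelled library and 16 of the 35 in the control-labelled library. Without the top cell of each library the levels were 330 and 134 CPM. Transcripts of other cells moved with the library: neutrophil markers summed to 7375 and 522 CPM in mast cell-like cells of the treated and control libraries, and plasma cell markers to 3226 and 42554 CPM. In the 65 treated and 35 control mast cell-like cells that passed a selection on foreign markers (at most 1 UMI of neutrophil, B cell and T cell markers) the Il4 ratio was 2.18 (1.19 to 3.36), from 84 and 9 UMIs. The part of plasma cell transcripts was not tested.

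In ILC2-like cells Il4 had few UMIs, and most of those in the control-labelled library came from 1 cell. The level was 57.5 CPM (38.8 to 82.1) in the treated-labelled library and 185 CPM (147 to 228) in the control-labelled library, where 54 of the 85 UMIs were in a single cell. Without the top cell of each library the levels were 54.2 and 67.7 CPM. Detection was in 24 of 121 cells of the treated-labelled library and 19 of 132 of the control-labelled library.

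The cytokines overlapped in part. In ILC2-like cells 13 cells of the treated-labelled library held both Il5 and Il13, which is 13 of the 58 with Il5 and of the 19 with Il13, against 23 cells of the control-labelled library, of the 67 with Il5 and the 32 with Il13. At least 1 of Il4, Il5 and Il13 was detected in 78 ILC2-like cells (64.5%) of the treated-labelled library and 83 (62.9%) of the control-labelled library. All 3 were found in 2 and 5 cells. In mast cell-like cells 12 cells of the treated-labelled library held both Il4 and Il13, of the 32 with Il4 and the 18 with Il13, and 3 cells of the control-labelled library, of 13 and 8. Cytokine-positive cells made up 42.7% and 36% of that class.

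**Figure D2:**
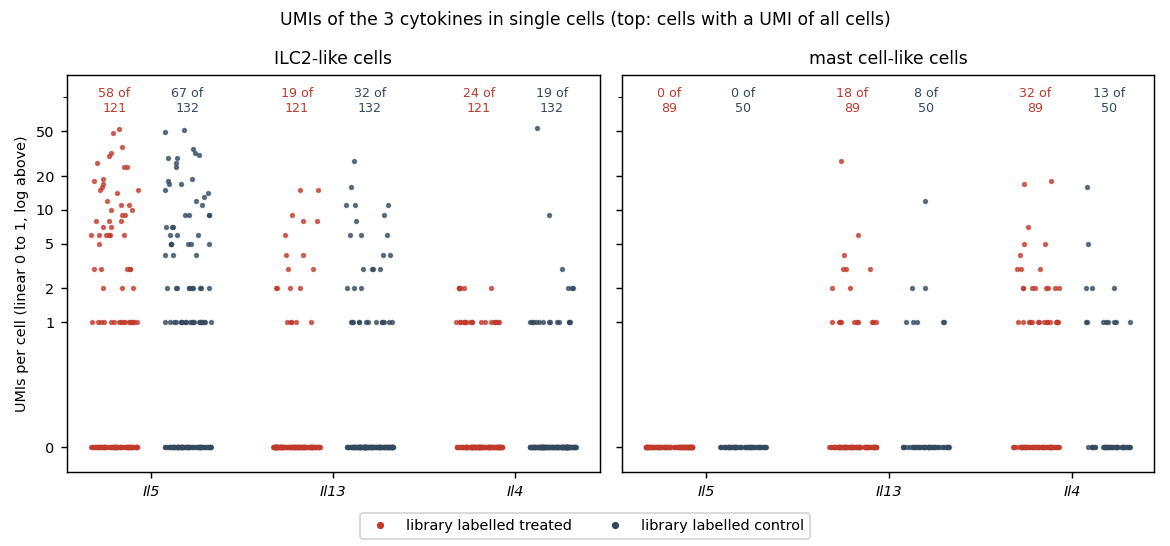
UMIs of Il5, Il13 and Il4 in each single ILC2-like cell (left) and mast cell-like cell (right), on an axis that is linear to 1 and logarithmic above, with the treated-labelled library in red and the control-labelled library in dark blue. Numbers at the top are cells with a UMI of all cells of the class; a few cells at 10 UMIs or more carry much of each sum, and 1 control ILC2-like cell carries 54 Il4 UMIs.

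A further source of Il4 and Il13 was a handful of cells inside a cluster led by Mpo, Elane, Ctsg and Prtn3, genes of granulocyte precursors. That cluster had 70 Il4 and 52 Il13 UMIs in the treated-labelled library, against 0 and 4 in the control-labelled library. In the treated-labelled library 4 of its cells with at least 3 UMIs of the basophil protease gene Mcpt8 held 66 of the 70 Il4 and 49 of the 52 Il13 UMIs. This selection was made after the values were seen. Over all barcodes of the rule, 5 cells in each library passed it, with 73 Il4 UMIs in the treated-labelled library and 14 in the control-labelled library, and 58 and 2 Il13 UMIs. Of these cells 1 in the treated-labelled library and 2 in the control-labelled library were called doublets, and 1 in the control-labelled library lay in the mast cell cluster. They had no Il5 or Gata3 UMIs. At 5 cells per library no comparison of levels was made.

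Regulatory T cell-like cells, a CD4 cluster of 570 cells in the treated-labelled library and 929 in the control-labelled library, held small amounts. Foxp3, the defining factor of regulatory T cells, was detected in 89 and 117 of them, so most cells of the class rest on other markers of the list. Il4 had 8 UMIs in the treated-labelled library and 27 in the control-labelled library, of which 13 came from 1 cell. Il13 had 0 UMIs in the treated-labelled library, which allows up to 1.07 CPM, and 19 in the control-labelled library, 13 of them in 1 cell. All of these Il4 and Il13 UMIs were in cells without a Foxp3 UMI. They came from 6 treated and 9 control cells for Il4 and from 3 control cells for Il13. Cells without a Foxp3 UMI made up most of the class, 481 of 570 treated and 812 of 929 control cells, and a difference by Foxp3 was not tested.

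Il1rl1, the receptor through which interleukin-33 acts, marked mast cell-like and ILC2-like cells, with a level in each class that was close in both libraries. In mast cell-like cells it was at 3056 CPM (2840 to 3285) in the treated-labelled library and 2737 CPM (2479 to 3016) in the control-labelled library, with a log2 ratio of 0.16 (-0.02 to 0.34). It was detected in 97.8% and 98% of them. In ILC2-like cells it was at 1397 CPM (1297 to 1502) and 1379 CPM (1274 to 1490), a log2 ratio of 0.02 (-0.14 to 0.17), with detection in 91.7% and 92.4% of cells. Regulatory T cell-like cells came next, at 91.5 CPM in the treated-labelled library and 60.7 CPM in the control-labelled library (0.59, 0.33 to 0.85). Within that class the cells with a Foxp3 UMI had 249 and 189 CPM of Il1rl1, and those without had 51.9 and 36.4 CPM. Macrophage-like cells had 7.76 and 10.9 CPM, and cDC2-like cells (conventional dendritic cells of type 2) 16.1 and 24.1 CPM. Over all analysed cells Il1rl1 was at 28.8 and 19.2 CPM. Of its UMIs in all barcodes of the rule, called doublets included, mast cell-like cells held 33.6% in the treated-labelled library and 24.0% in the control-labelled library.

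Gata3 was highest in ILC2-like cells, where it was at 1692 CPM (1582 to 1807) in the treated-labelled library and 2204 CPM (2070.3 to 2344) in the control-labelled library. The log2 ratio was -0.38 (-0.51 to -0.25), with detection in 95.9% and 92.4% of cells. Regulatory T cell-like cells had 137 and 148 CPM, natural killer (NK) cell-like cells 74.0 and 79.0 CPM, and gamma delta T cell-like cells 65.9 and 77.1 CPM. In these 3 classes the interval of the ratio held 0, and the intervals of the NK and gamma delta classes overlapped within each library. T cell-like cells had 48.6 and 38.9 CPM (0.32, 0.10 to 0.54). B cell-like cells gave a background of 2.49 and 2.60 CPM. Mast cell-like cells, the class with the highest Il1rl1 and Il4 levels, had 2 Gata3 UMIs in each library. Il1rl1 and Gata3 were detected together in 108 of 121 ILC2-like cells of the treated-labelled library and 114 of 132 of the control-labelled library, but in 2 of 89 and 1 of 50 mast cell-like cells.

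Il5, Il13, Gata3 and Areg were lower in CPM in ILC2-like cells of the treated-labelled library, while its summed T cell markers were higher. A stricter selection kept 39 ILC2-like cells of the treated-labelled library and 49 of the control-labelled library in which markers of neutrophils, B cells and T cells, other than those on the class's own list, gave no more than 1 UMI. In those cells the log2 ratio was -0.054 (-0.34 to 0.23) for Il5 and -0.28 (-0.92 to 0.34) for Il13. It was -0.11 (-0.33 to 0.11) for Gata3 and 0.041 (-0.30 to 0.38) for Areg. Each interval held 0, and that of Il5 also held the class ratio of -0.24. Wherever this selection is used, its limit is a raw count that shallow cells pass more readily. The parts of depth and of foreign transcripts in these ratios were not tested.

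Areg, a growth factor that type 2 lymphocytes and myeloid cells release during tissue repair, was spread over lymphoid and myeloid classes. Its highest level was in ILC2-like cells, at 847 CPM (769.7 to 929.6) in the treated-labelled library and 1164 CPM (1067 to 1267) in the control-labelled library, with a log2 ratio of -0.46 (-0.64 to -0.27) and detection in 70.2% and 68.9% of cells. The largest sum of UMIs was in classical monocyte-like cells, with 1931 UMIs and 186 CPM (177 to 194) in the treated-labelled library, against 1243 UMIs and 312 CPM (295 to 330) in the control-labelled library. There the log2 ratio was -0.75 (-0.85 to -0.65) although detection was alike, at 20.1% and 22.0% of cells. The top 50% of those UMIs came from 40 cells of the treated-labelled library and 18 of the control-labelled library.

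The ratio in classical monocyte-like cells depended on which cells were counted. In the 266 treated and 110 control cells that passed the same selection on foreign markers it was 0.088 (-0.20 to 0.38). T cell markers summed to 46.8 CPM in classical monocyte-like cells of the treated-labelled library and 186 CPM in those of the control-labelled library, and their part in the Areg ratio was not tested. In patrolling monocyte-like cells Areg was at 101 and 306 CPM (-1.59, -1.85 to -1.34), with detection in 8.47% and 19.9% of cells. In neutrophil-like cells it was at 18.8 and 57.5 CPM (-1.61, -1.96 to -1.27).

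Dendritic and T cells completed the Areg pattern. In cDC2-like cells it was at 295 CPM (280.2 to 309.8) in the treated-labelled library and 316 CPM (295 to 339) in the control-labelled library, and the interval of the ratio held 0. Regulatory T cell-like cells had 157 and 185 CPM (-0.24, -0.41 to -0.07), with 0.079 (-0.11 to 0.27) under finer clustering, and the cells with a Foxp3 UMI among them 380.2 and 287 CPM. Gamma delta T cell-like cells had 119.5 and 187 CPM (-0.65, -0.86 to -0.43). In cDC1-like cells Areg was at 24.4 and 8.45 CPM, but 26 of the 79 UMIs in the treated-labelled library were in 1 cell. The ratio turned to -0.75 under finer clustering. Under coarser clustering it was -0.13, but no cluster was named cDC2-like there. The cluster then named cDC1-like held 681 treated and 399 control cells, with the cDC2 marker Cd209a among its leading genes. In the Mpo and Elane cluster it was at 86.2 and 17.3 CPM, where Mpo was detected in 13.5% of treated and 46.8% of control cells and the median depth was 2053.5 and 13243.5 UMIs. Over the 17 classes the interval lay below 0 in 7, above 0 in 3 and held 0 in 7, whereas over all cells the level was 89.7 CPM in the treated-labelled library and 69.3 CPM in the control-labelled library. Monocyte-like and cDC2-like cells were a larger share of the treated-labelled library, at 10.9% and 4.27% of cells for classical monocyte-like cells and 5.16% and 2.70% for cDC2-like cells. B cell-like cells had 2.28 and 2.74 CPM, and mast cell-like cells 6 UMIs in each library.

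Il4ra, the receptor chain shared by interleukin-4 and interleukin-13, was the most evenly spread of the 9 genes, and the interval of its ratio held 0 in most classes. It was highest in ILC2-like cells, at 203 CPM (166 to 246) in the treated-labelled library and 239 CPM (196 to 288) in the control-labelled library. Gamma delta T cell-like cells had 145 and 152 CPM and T cell-like cells 139 and 143 CPM. Macrophage-like cells, with the most Il4ra UMIs over both libraries (1292 and 1115), had 109 CPM (103 to 115) and 119.5 CPM (113 to 127), a log2 ratio of -0.13 (-0.25 to -0.02). It was detected in 41.9% and 46.6% of macrophage-like cells. Intervals were wide where UMIs were few, as in mast cell-like cells (-1.37 to 1.48) and germinal centre B cell-like cells (-0.21 to 1.23). The interval held 0 in 15 of 17 classes. The other exception was NK cell-like cells, at 112 and 156 CPM (-0.48, -0.74 to -0.21). That ratio was 0.020 (-0.23 to 0.26) under coarser clustering, where the class held 470 treated and 534 control cells instead of 401 and 421. At the low end were germinal centre B cell-like cells, at 21.0 and 14.5 CPM, and plasma cell-like cells, at 3.78 and 3.88 CPM. Over all cells the level was 76.7 and 64.8 CPM.

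Retnla, which encodes the secreted protein RELM-alpha, was found mainly in macrophage-like and cDC2-like cells. Macrophage-like cells, 1838 in the treated-labelled library and 1411 in the control-labelled library, had all 20 of their markers, at sums of 21072 and 22422 CPM. Retnla had 16725 UMIs and 1409.9 CPM (1389 to 1431) there in the treated-labelled library, against 15023 UMIs and 1610.1 CPM (1584 to 1636) in the control-labelled library. The log2 ratio was -0.19 (-0.22 to -0.16). Detection was in 558 cells (30.4%) of the treated-labelled library and 396 cells (28.1%) of the control-labelled library, and in 21.9% and 19.9% after thinning, against 4.64% and 5.07% of B cell-like cells. The tenth of macrophage-like cells with the most Retnla held 85.2% and 88.6% of its UMIs, and 50% came from 55 and 39 cells. The top cell had 517 UMIs in the treated-labelled library and 623 in the control-labelled library.

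That small ratio varied with the clustering. It was -0.056 (-0.08 to -0.03) under coarser clustering and -0.50 (-0.56 to -0.43) in the 665 treated and 562 control cells that passed the selection on foreign markers. It was -0.59 (-0.62 to -0.56) when classical and patrolling monocyte-like cells, which were more numerous in the treated-labelled library, were pooled with macrophages.

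Macrophage sub-clusters differed widely in Retnla. The sub-cluster led by Thbd, Cxcl13 and several Cd209 genes had 2262 CPM in the treated-labelled library and 3366 CPM in the control-labelled library, with detection in 55.1% and 51.4% of cells, a log2 ratio of -0.57 (-0.62 to -0.53). The sub-cluster led by Acod1 and Ifi205 had 1584 and 1809.7 CPM, and that led by Pde4c and Efna2 had 2409 and 1852 CPM (0.38, 0.29 to 0.47). Cells led by Spp1, Mmp12, Ctsk and Gpnmb, genes known from lipid-laden foamy macrophages, had 16.6 and 6.17 CPM. In the main clustering, however, the macrophage-like cluster led by Mmp12, Ctsk, Spp1 and Trem2 had 476 and 183 CPM (1.38, 1.21 to 1.54). The other macrophage-like cluster, led by Ccl8, Cbr2 and Folr2, had 1686 and 2026 CPM (-0.26, -0.30 to -0.23). A sub-cluster led by Marco, Prg4 and Alox15 had 1199 and 799 CPM, and its median depth of 2566 UMIs was the lowest of the 8. One led by the heat shock genes Hspa1b and Hspa1a had 433 CPM in 159 treated cells and 0 UMIs in 58 control cells, a log2 ratio of at least 5.54 against a floor of 3 UMIs. The ratio thus differed in sign between sub-clusters, which was not tested. With each sub-cluster given an equal weight in both libraries the ratio was -0.23.

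**Figure D3:**
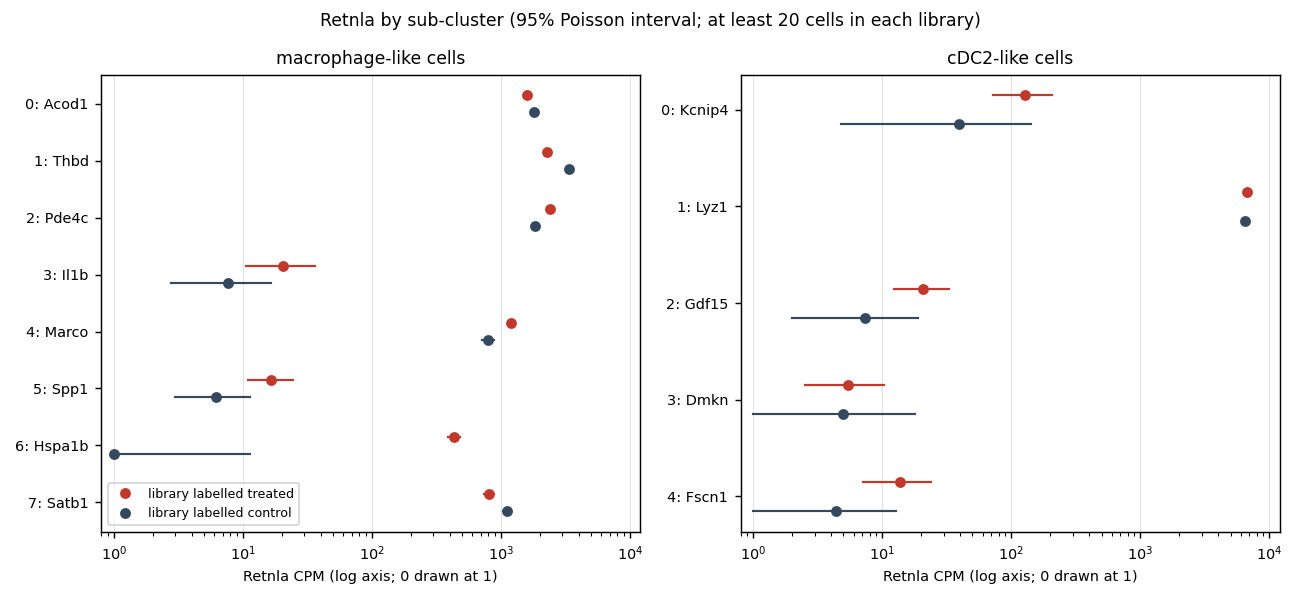
Retnla level, in CPM on a log axis, in sub-clusters of macrophage-like cells (left) and cDC2-like cells (right), each named by its first leading gene, for the treated-labelled library (red, upper) and the control-labelled library (dark blue, lower) with 95% Poisson intervals. A single cDC2 sub-cluster holds 6730.1 and 6477 CPM, and the Spp1 and Il1b sub-clusters of macrophages lie below 100 CPM.

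cDC2-like cells had a Retnla level somewhat below the 1409.9 and 1610.1 CPM of macrophage-like cells. It was 1347 CPM (1315 to 1378) in the treated-labelled library and 1387 CPM (1341 to 1433) in the control-labelled library, with a log2 ratio of -0.04 (-0.10 to 0.02). The top 50% of those UMIs came from 11 treated cells and 6 control cells. A sub-cluster of 106 treated and 53 control cells, led by Lyz1, Fn1, Ccl24 and Fcrls, carried them: it had 6730.1 and 6477 CPM, with detection in 79.2% and 83.0% of its cells. The 7 cDC2 markers did not stand out in this class by their sum, which came to 955 CPM in the treated-labelled library and 862 CPM in the control-labelled library, against 974 and 1019 CPM in macrophage-like cells. Macrophage markers summed to 1882 and 2006 CPM in cDC2-like cells, and classical monocyte markers to 2773 and 2106 CPM. With the members kept for clustering, 426 treated and 173 control cells led by Lyz1, Retnla and Ear2 formed a cluster that stayed unnamed. In other myeloid classes Retnla was low. It was at 16.5 and 6.53 CPM in classical monocyte-like cells, a direction that turned with called doublets kept (-0.66, -1.02 to -0.30), and at 33.2 and 5.70 CPM in patrolling monocyte-like cells, where 47 of the treated-labelled library's 71 UMIs were in 1 cell. cDC1-like cells had 7.72 and 37.8 CPM, with 63 of the 85 UMIs of the control-labelled library in 1 cell.

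Chil3, which encodes the chitinase-like protein Ym1, did not follow Retnla and was not mainly a macrophage transcript in these cells. Of its UMIs in all barcodes of the rule macrophage-like cells held 1.56% in the treated-labelled library and 1.48% in the control-labelled library, against 63.8% and 72.4% for Retnla. Classical monocyte-like cells held the most, 18988 UMIs and 1825 CPM (1799 to 1851) in the treated-labelled library, against 5851 UMIs and 1469 CPM (1431 to 1507) in the control-labelled library. The log2 ratio was 0.31 (0.27 to 0.36). Detection was in 76.5% and 76.6% of cells, and in 56.2% and 51.8% after thinning. Over all cells the log2 ratio of Chil3 was 1.05, and the class itself was 1291 cells in the treated-labelled library and 492 in the control-labelled library.

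The highest Chil3 level was in granulocyte precursors that express the secondary granule genes Camp and Ltf, at 9216 CPM in 54 treated cells and 8476 CPM in 40 control cells, all of which had it. The Mpo and Elane cluster had 725 and 465 CPM (0.64, 0.49 to 0.79), but its cells differed by library. Under finer clustering a cluster led by Ctsg, Mpo and Elane held only 50 treated and 37 control cells. An unnamed one led by Cfd and Mgp, which are also leading genes of the main cluster, held 240 treated and 32 control cells. Its median depth was 1643.5 UMIs. In the main cluster Elane was detected in 13.1% of cells in the treated-labelled library and 48.4% in the control-labelled library. Retnlg was at 1130.0 and 255 CPM there and Camp at 691 and 216 CPM. The part of these differences in the Chil3 ratio was not tested. In neutrophil-like cells the sign was the opposite, with 328 CPM (313 to 343) in the treated-labelled library and 871 CPM (841 to 901) in the control-labelled library (-1.41, -1.49 to -1.33). Of the 2 neutrophil clusters, the one with high Camp, Ltf and Ngp had 814 and 1768 CPM of Chil3 and the other 21.2 and 55.6 CPM. In the cluster with more Chil3 the granule genes themselves were at 10226 and 13287 CPM for Camp, 3005 and 3922 CPM for Ltf and 12963 and 17762 CPM for Ngp, while Retnlg was at 30617 and 25861 CPM. The part of neutrophil maturity in the Chil3 ratio was not tested.

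**Figure D4:**
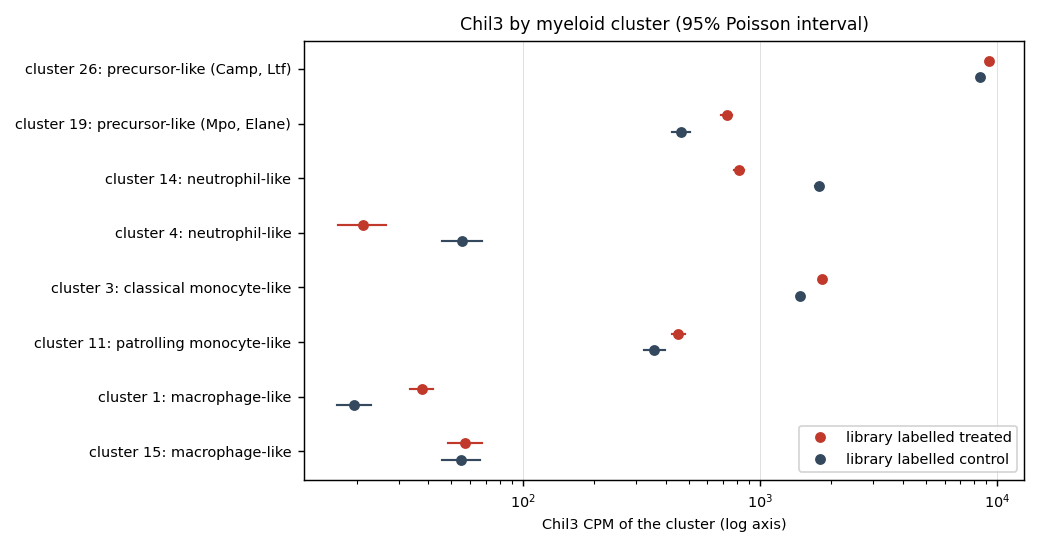
Chil3 level, in CPM on a log axis, in the myeloid clusters, for the treated-labelled library (red, upper) and the control-labelled library (dark blue, lower) with 95% Poisson intervals. The Camp and Ltf precursors lie highest at 9216 and 8476 CPM, classical monocyte-like cells at 1825 and 1469 CPM, and macrophage-like clusters lie below 100 CPM.

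In patrolling monocyte-like cells Chil3 was at 452 CPM in the treated-labelled library and 358 CPM in the control-labelled library (0.34, 0.16 to 0.51). Macrophage-like cells had 42.0 CPM (38.4 to 45.8) and 27.5 CPM (24.3 to 31.1), a log2 ratio of 0.61 (0.39 to 0.83). The top 50% of these UMIs came from 6 cells in each library, and in the cells that passed the selection on foreign markers the ratio was -0.87 (-1.32 to -0.42). Neutrophil markers summed to 668 CPM in macrophage-like cells of the treated-labelled library and 326 CPM in those of the control-labelled library. In classes that should lack Chil3, B cell-like cells had a UMI in 3.85% and 1.78% of cells. Plasma cell-like cells had 24.6 and 1.98 CPM, but 93 of their 189 UMIs in the treated-labelled library were in 1 cell, and in the cells that passed the selection on foreign markers there were 1 and 13 UMIs, a ratio of -1.46 (-6.87 to 1.28). Retnla and Chil3 were found together in 32 macrophage-like cells of the treated-labelled library, of the 558 with Retnla and the 123 with Chil3, and in 13 of the control-labelled library, of 396 and 56. Il4ra and Retnla were found together in 278 and 224 macrophage-like cells.

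**Figure D5:**
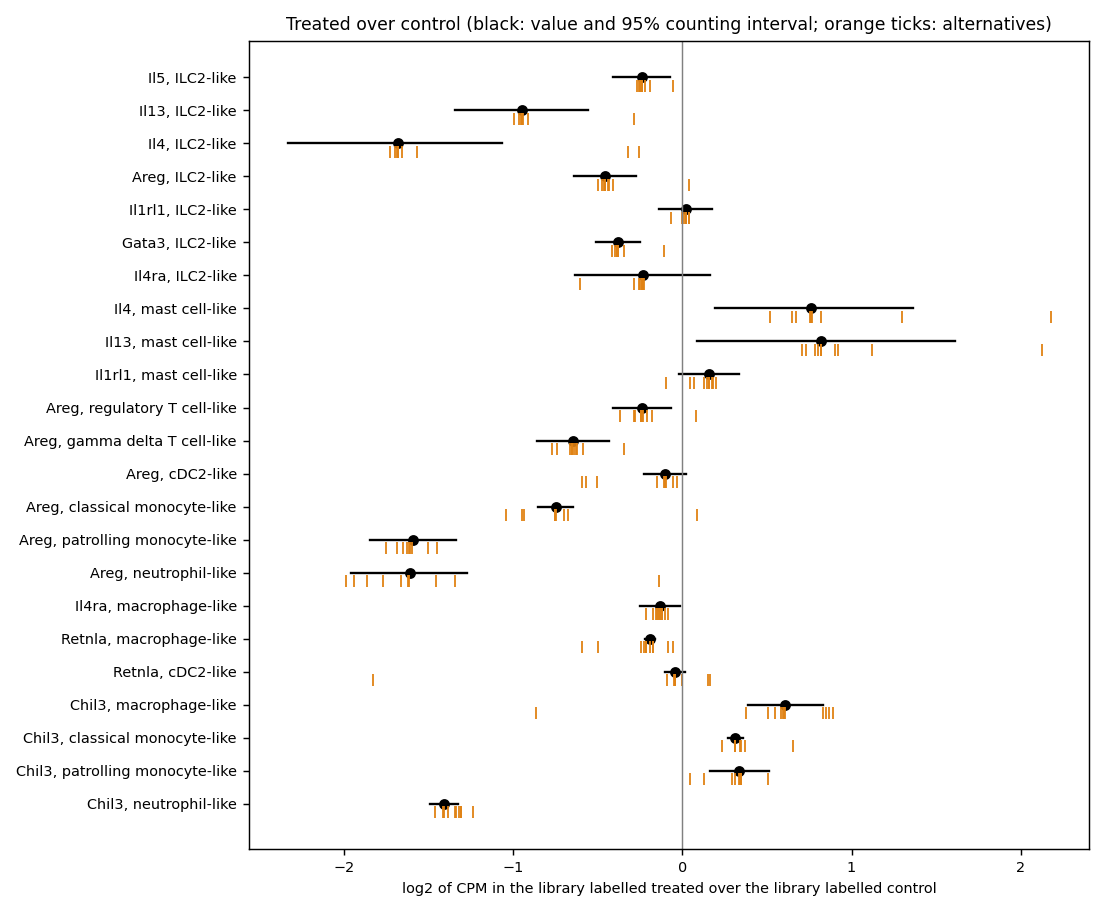
Log2 ratio of CPM in the treated-labelled library over that labelled control for the main gene and class pairs (black points, with 95% counting intervals), and the same ratio under each alternative setting (orange ticks). Most ticks lie near their point, while a tick far from it, as for Areg in classical monocyte-like cells (0.088 against -0.75), marks a setting that moves the value.

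Members past 1.5-fold were counted beside the share of all genes past it. In ILC2-like cells 7 of the 9 had at least 20 UMIs over both libraries. Of these, 2 (Il4 and Il13) were lower by more than 1.5-fold and 0 were higher, where 24% of 5249 genes were past 1.5-fold either way and 10.8% were lower. Without the top cell of each library Il4 was at 54.2 CPM in the treated-labelled library and 67.7 CPM in the control-labelled library. The Il13 ratio was smaller in the cells that passed the selection on foreign markers. In mast cell-like cells 4 had enough UMIs, and Il4 and Il13 were past 1.5-fold, both higher, where 28.3% of 3181 genes were past it, 19.3% higher and 9.05% lower. In macrophage-like cells 6 had enough UMIs, with Chil3 higher and Gata3 lower, where the share of 12781 genes was 12.7%, with 5.26% higher and 7.43% lower. Chil3 reversed there in the cells that passed the selection on foreign markers. Gata3 was at 3.20 and 5.79 CPM there, against 2.49 and 2.60 CPM in B cell-like cells. In classical monocyte-like cells 7 had enough, with Retnla higher and Il5, Areg, Il1rl1 and Gata3 lower, where 13.4% of 11030 genes were past it, 6.3% higher and 7.13% lower. Of those, Il5 had 17 of its 18 UMIs in the control-labelled library in 1 cell, Retnla turned to -0.66 with called doublets kept and Areg to 0.088 in the cells that passed the selection on foreign markers. The counts of members rest on a filter on low values and were not tested.

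Of 23 genes known as interleukin-4 targets of mouse macrophages, 21 had enough UMIs in macrophage-like cells. Past 1.5-fold were 2 higher and 3 lower, beside 5.26% higher and 7.43% lower of all genes, and the median log2 ratio was -0.06, against 0.02 for all genes measured. The higher ones were the eotaxin gene Ccl24, at 188 CPM in the treated-labelled library and 103 CPM in the control-labelled library (0.86, 0.76 to 0.98), and Ear2, an eosinophil-associated ribonuclease, at 12.4 and 7.40 CPM. The transcription factor Irf4 was lower, at 28.9 and 44.9 CPM (-0.64, -0.85 to -0.43), and the chemokine genes Ccl17 and Ccl22 had only 7 and 14 UMIs in the treated-labelled library and 13 and 18 in the control-labelled library. The most abundant targets differed little: Ccl8 was at 4429 and 4444 CPM, the mannose receptor Mrc1 at 1168 and 1128 CPM and the lectin Clec10a at 536 and 572 CPM. Arg1, arginase-1, had 32 and 26 UMIs.

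All 10 components of interleukin-4 signalling were measured in macrophage-like cells. Of these 0 were past 1.5-fold, beside 12.7% of all genes, and the median was -0.07. The most abundant were Jak1 at 299 and 321 CPM, Stat5b at 109 and 114 CPM and the phosphatase Ptpn6 at 96.5 and 74.5 CPM. Stat6 was at 51.3 and 47.5 CPM. Of 8 receptor chains 6 were measured and 1 was past 1.5-fold, Il9r, with 6 UMIs in the treated-labelled library and 22 in the control-labelled library. The most abundant were Il2rg at 82.5 and 75.5 CPM, Csf2rb at 68.4 and 55.2 CPM and Il13ra1, the partner chain of Il4ra, at 39.0 and 43.4 CPM. The list of alarmins and their receptors held 13 genes, among them some that are neither, such as Icos and the neuropeptide gene Calca. Of these 13 genes 8 were measured, with Icos (9.19 and 24.2 CPM) and Calca (11 and 30 UMIs) lower. The receptor genes Crlf2, at 102 CPM in both, and Il7r, at 46.9 and 49.2 CPM, were the most abundant, followed by Tslp at 24.9 and 22.0 CPM. Il9r, Icos and Calca are also on the ILC2 marker list, and the part of transcripts from other cells in their ratios was not tested.

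Of 10 type 2 transcription factors 1 was past 1.5-fold in macrophage-like cells, Ets1, at 35.9 CPM in the treated-labelled library and 72.2 CPM in the control-labelled library (-1.01, -1.19 to -0.83). The most abundant were Junb at 2865 and 2891 CPM, Rbpj at 1209 and 1186 CPM and Maf at 437 and 348 CPM. T cell-like cells were 10.2% of cells in the treated-labelled library and 16.5% in the control-labelled library. The part of transcripts from other cells in the Ets1 ratio was not tested. Of 8 further cytokine genes 5 were measured and Csf2, with 25 and 12 UMIs, was higher, while Il10 was at 512 and 464 CPM. Among 6 neighbours of the cytokine cluster, Irf1 was higher, at 132 and 68.2 CPM (0.95, 0.82 to 1.09). This gene of an interferon-induced transcription factor lies 44907 bp from Il5, while Rad50, between Il13 and Il5, was at 15.4 and 15.3 CPM.

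In ILC2-like cells the lists held fewer measured genes, and the counts stand beside 13.2% higher and 10.8% lower of all genes. Of the other cytokines 4 were measured: Il2 (23 and 6 UMIs) and Lif (24 and 5 UMIs) were higher, and Csf2, the gene of the growth factor GM-CSF, was lower, at 651 CPM in the treated-labelled library and 1383 CPM in the control-labelled library (-1.09, -1.28 to -0.89). Of 10 transcription factors Tcf7 was higher, at 97.7 and 47.8 CPM, as was Nfatc1, at 70.9 and 45.6 CPM, and 0 were lower. Tcf7 is also a T cell marker of the lists, and Rora, Calca, Il7r, Icos, Il9r and Lif are on the ILC2 list used to name this class. The most abundant were Rora at 3748 and 4468 CPM, Junb at 3075 and 3815 CPM and Ets1 at 1169 and 1469.9 CPM. None of the 6 measured genes of the alarmin list was past 1.5-fold. On that list the neuropeptide gene Calca was at 1765 and 2312 CPM, Il7r at 692 and 675 CPM and Icos at 521 and 745 CPM. Of 8 measured signalling genes Stat6 was lower, with 22 and 30 UMIs, and Jak1 (515 and 421 CPM), Irs2 (489 and 627 CPM) and Cish (329.5 and 280.1 CPM) were the most abundant. The receptor chains measured were Il2rg, at 383 and 521 CPM, and Il9r, which was higher, with 19 and 10 UMIs. Of 9 measured macrophage targets Ccl8, Tgm2 and Myc were lower, with 17, 11 and 18 UMIs in the treated-labelled library and 23, 16 and 29 in the control-labelled library. The abundant ones were Pparg (358 and 367 CPM), Klf4 (261 and 330.0 CPM) and Socs2 (318 and 282 CPM). None of the 3 neighbours measured was past 1.5-fold.

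Over the 34 sums of 17 classes and 2 libraries, the gene most like Il4 of 15343 compared was Il13 (Pearson r of log2(CPM + 1) 0.933), followed by Il1rl1 (0.860) and Ipmk (0.851). The converse held for Il13, with Il4 (0.933), Ptger3 (0.921) and Il1rl1 (0.876), and Il1rl1 was most like Ipmk (0.904), Radx (0.890) and Il13 (0.876). Il5 was most like Acbd7 (0.941), Ctnna2 (0.924) and Dach2 (0.893), and Gata3 most like Camk4 (0.923) and Bmp7 (0.915). For Areg the values were lower, with Fam110a (0.821), Cysltr1 (0.813) and Lcp2 (0.812). Il4ra was most like Peak1 (0.920), Itpkb (0.871) and Pak2 (0.869). Retnla was most like Hrh1 (0.908), Cd209d (0.882) and Fcrls (0.871), and Chil3 most like Trem3 (0.907), Msrb1 (0.901) and Kcnj2 (0.893). The sums share 2 libraries and their depth, so these correlations describe the classes and carry no test.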

How the data were processed

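The deposited values are raw UMI counts per gene and cell barcode, which the authors made from 10x Chromium Single Cell 3′ v2 libraries per the labels' protocols. The submitters' processing notes list the mm10 build, Seurat 4.4.0 and Cell Ranger 3.1.0, whereas Cell Ranger 7.2.0 stands in the file headers. Neither the version behind the counts nor the use of intronic reads is stated in the sources used here. The members and gene lists were chosen with earlier results of these data known.

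Barcodes with at least 500 genes and at most 15% mitochondrial UMIs were kept. Scrublet (scanpy 1.11.5) marked 5.20% and 4.26% of barcodes of the treated and control libraries, against 10.5% and 10.0% expected, so doublets may remain. Counts were scaled to 10000 per cell and log-transformed, and 2000 variable genes without the members, 30 components and 15 neighbours were used to find Leiden clusters with python-igraph 0.11.9 under Python 3.11.15, at a resolution of 1 and without batch integration. Clusters were named from 26 marker lists. The naming rule was set after the clusters were seen: a mean marker score of at least 1.5, at least 3 markers in at least 10% of cells and, among the 10 leading genes, own markers at least as many as those of any other class. Macrophage-like and cDC2-like cells were reclustered at resolution 0.5.

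Counts were summed per class and library. Sums carry Poisson, shares Clopper-Pearson and ratios conditional binomial intervals at 95% (scipy 1.17.1), and for a ratio against 0 UMIs a floor of 3 was used. A gene of a list was measured with at least 20 UMIs over both libraries, and called past 1.5-fold. Named genes were all 9 members and, of each list, those past 1.5-fold and the 3 highest by CPM, with other list members added after their values were seen. Likeness used genes with at least 50 UMIs and a pseudocount of 1, and 1 gene that the rule named is not reported here. The intervals and ratios were tested on simulated counts with known answers. Alternatives covered the filters, doublets, clustering, thinning to 2000 UMIs, top cells, markers of other classes, scaling, immunoglobulin genes and the list filter.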

Additional observations from a re-analysis of the deposited data

How the results depend on the processing

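The 9 genes' main ratios were recomputed under the filters, doublet, clustering, scaling, top-cell and foreign-marker alternatives, their shares under another thinning and the list counts under 2 other minimum counts. Of these values 96 moved by less than their counting interval or 1.5-fold, 43 moved and 1 reversed. Of the values for other classes 719 held, 61 moved and 16 reversed. The filters of 1000 genes and of 10% mitochondrial UMIs, leaving out immunoglobulin UMIs and centring on the median gene moved none of the main values, and the cause of each move below was not tested. Values are log2 ratios of treated over control unless said.

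With called doublets kept, Areg in classical monocyte-like cells was -0.94, and Retnla reversed to 2.50 in regulatory T cell-like and -0.66 in classical monocyte-like cells. At resolution 0.5, Retnla in macrophage-like cells was -0.056 and Areg in classical monocyte-like cells -0.95, while reversals were Areg in macrophage-like cells (0.12), Areg in cDC1-like cells (-0.13) and Il4ra in NK cell-like cells (0.020). The cDC1-like and NK cell-like clusters held more cells there than the classes of that name in the main clustering, and no cluster was named cDC2-like. At resolution 2, Retnla in macrophage-like cells was -0.25, and Areg and Chil3 in classical monocyte-like cells were -1.04 and 0.24. Reversals there were Areg in regulatory T cell-like (0.079) and cDC1-like cells (-0.75) and Retnla in neutrophil-like cells (-0.027). With the members kept for clustering, Retnla was -0.085 in macrophage-like cells and reversed to -0.020 in neutrophil-like cells, and Chil3 was 0.37 in classical monocyte-like cells. Without the top cell of each library, Il1rl1 in B cell-like cells reversed to -0.98.

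In cells with at most 1 UMI of foreign markers, ILC2-like cells had -0.054 for Il5, -0.28 for Il13, -0.11 for Gata3 and a reversed 0.041 for Areg. Il4 was 2.18 in mast cell-like cells and reversed to 0.43 in regulatory T cell-like cells. Retnla was -0.50 in macrophage-like cells, where Il1rl1 and Chil3 reversed to 0.091 and -0.87. In classical monocyte-like cells Chil3 was 0.65 and Areg reversed to 0.088. Il1rl1 reversed to -0.47 in B cell-like and Chil3 to -1.46 in plasma cell-like cells. Retnla was -0.59 with macrophage-like and monocyte-like cells together and -0.23 with sub-clusters given equal weights.

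Thinned to 2000 UMIs instead of 1000, the share of cells was 26.1% for Il4 in control mast cell-like cells and 47.6% for Il5 in control ILC2-like cells. Cells with fewer than 2000 UMIs were left out, and the median depth of control mast cell-like cells was 1808.5 UMIs. In ILC2-like cells of the treated-labelled and control-labelled libraries it was 84.5% and 87.9% for Il1rl1 and 87.3% and 91.9% for Gata3. In macrophage-like cells it was 18.7% and 21.8% for Il4ra and 24.4% and 22.8% for Retnla, and in classical monocyte-like cells 13.9% and 15.6% for Areg and 67.6% and 65.3% for Chil3.

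With at least 50 UMIs required, macrophage-like cells had 1 gene of the alarmin list, 0 receptors, 0 cytokines and 3 interleukin-4 targets past 1.5-fold. ILC2-like cells had 0 receptors, 1 cytokine and 0 targets past it. With 1 UMI in each library required, macrophage-like cells had 5 genes of the alarmin list, 2 receptors and 2 cytokines past it. ILC2-like cells then had 2 genes of the alarmin list, 2 signalling genes and 1 neighbour past it. No paired analysis was possible because there was 1 library per group. Depth limits the sums of few UMIs and of few cells, such as Il4 and Il13 in mast cell-like cells.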

Other observations

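Several genes of the same pathways had their highest level, among the named classes with a ratio, in a class other than macrophages. Il33, the gene of the cytokine that binds Il1rl1, was highest in fibroblast-like cells, at 279 CPM in the treated-labelled library and 332 CPM in the control-labelled library. Csf2 and the arginase gene Arg1 were highest in ILC2-like cells among these classes, Arg1 at 132 and 122 CPM. Tph1, which encodes an enzyme of serotonin synthesis, was highest in mast cell-like cells, at 915 and 870.1 CPM, and Il6 was at 153 and 66.9 CPM there. In classical monocyte-like cells Ccl24 was at 94.8 CPM in the treated-labelled library and 14.3 CPM in the control-labelled library (log2 ratio 2.73, 2.34 to 3.14), and Ccl17 had 86 UMIs and 1 UMI. These genes were singled out after their values were seen.

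An unnamed cluster of 16 treated and 11 control cells, led by Alox15, Prg4 and Saa3, with Arg1 among its leading genes, had 33.0 and 732 CPM of Areg and 367 and 122 CPM of Chil3. Of its 96 Areg UMIs in the control-labelled library 56 were in 1 cell, and of its 89 Chil3 UMIs in the treated-labelled library 41 were in 1 cell.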
